A study of Drosophila melanogaster with 36 samples.

Results

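The comparison described here set RNA of gradient pool 3 against RNA of gradient pool 1 in orb2-delta-zz Drosophila melanogaster embryos collected 1-2h after egg laying. It rests on 6 of the 36 libraries of the series, pools 1 and 3 of 3 gradients, chosen by genotype, collection time and pool and paired by gradient. In these embryos orb2, which encodes an RNA-binding CPEB protein, lacked the part for its zinc-binding ZZ domain. The wild-type embryos used beside them were w1118, the stock from before injection, and both stocks were kept at 25 °C. Per the labels, crushed whole embryos were lysed with cycloheximide, the lysate was run on a 15-45% sucrose gradient, and libraries were made from ribosomal RNA-depleted RNA with a directional kit. The labels leave out the region of the gradient that each pool covers, how many embryos went into a gradient, or whether the 3 gradients came from separate collections, so p-values measure the spread between gradients, which may be technical. The other groups used here are wild type at 1-2h (6 libraries) and orb2-delta-zz at 0-1h and 2-3h (12 libraries). Gradients are numbered here by replicate. For orb2-delta-zz at 1-2h, gradients 1, 2 and 3 carry the numbers 2, 3 and 4 in the submitters' own column names.

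In a sucrose gradient, particles sediment by size and density, so free RNA, single ribosomes and mRNAs loaded with several ribosomes come to rest at different depths. In the first hours after egg laying the fly embryo divides as a syncytium with almost no transcription of its own. It works from RNA that the mother laid down, and much of its regulation lies in which of these mRNAs are translated, stored or destroyed. CPEB proteins bind the 3' ends of mRNAs and control their translation.

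Estimated depth was 22.9 to 35.2 M reads in the 3 libraries of pool 1 and 33.7 to 44.5 M in those of pool 3. The authors' table listed 8723 genes at 1-2h, each above 0 in all 12 libraries of that time, and 8294 whose mean reached 10 normalized counts were tested. Levels are the deposited normalized counts, which compare 1 gene between libraries and not genes with each other. A log2 ratio is pool 3 minus pool 1 of log2(normalized count + 1), averaged over 3 gradients. A gene was called at an adjusted p under 0.05. The SE after ± comes from the fit, which estimates each gene's spread from both genotypes together and draws on other genes. It is therefore not the scatter of the 3 orb2-delta-zz gradients alone. For changes over time the SE comes from the fit of 18 orb2-delta-zz libraries. The ratio understates the difference of genes with few counts because of the added 1.

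The scale decides where 0 lies. On the authors' scale the median gene had a log2 ratio of 0.06, since the DESeq2 scaling that the processing notes name places typical genes near 0. On the TPM scale, where each library sums to nearly the same total, the median gene had a ratio of 1.55, and 88.1% of 7406 genes were called, 5855 higher (79.1%) and 667 lower (9.01%). The data give no absolute amount of RNA per pool. What follows therefore gives ratios on the authors' scale, and beside each gene group its distance from the median gene of all those tested, which had the same sign on both scales for every list with at least 5 tested members.

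The 2 pools held very different RNA. Of 8294 genes, 6757 (81.5%) were called, 3442 (41.5%) higher in pool 3 and 3315 (40.0%) lower, and 2684 (32.4%) were at least 2-fold higher and 2344 (28.3%) at least 2-fold lower. The values of the pools did not overlap for 6580 genes (79.3%). The counts called in each gene group below are to be read beside these shares of all genes. The 5th and 95th centiles of the ratio lay at -2.63 and 3.62, and the lowest and highest ratio at -8.62 and 6.27. The ratio of 1 gradient followed that of another closely across genes, with Pearson's r from 0.946 to 0.964 over 8294 genes, which are not independent replicates.

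The largest single block of RNA in pool 1 was mRNA for the cytosolic ribosome. As a share of the listed TPM, the mRNAs of 82 cytosolic ribosomal protein genes took 45.5%, 49.1% and 49.4% in pool 1 of the 3 gradients and 8.09%, 8.87% and 9.04% in pool 3. Small nuclear, nucleolar and other small structural RNAs took 12.5%, 14.8% and 14.3% in pool 1 and 0.800%, 0.817% and 0.778% in pool 3. Both classes were lower in pool 3 in every gradient. The mRNAs of replication-dependent histones took a larger share of pool 3, with 2.16%, 1.98% and 2.23% in pool 1 and 5.91%, 7.16% and 6.42% in pool 3. Their summed normalized counts were lower in pool 3, at 575100, 625070 and 685470 in pool 1 and 356900, 417440 and 345850 in pool 3, so the direction depends on the scale. Since TPM are shares, a class that takes up more of pool 1 leaves less for every other RNA there.

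**Figure D1:**
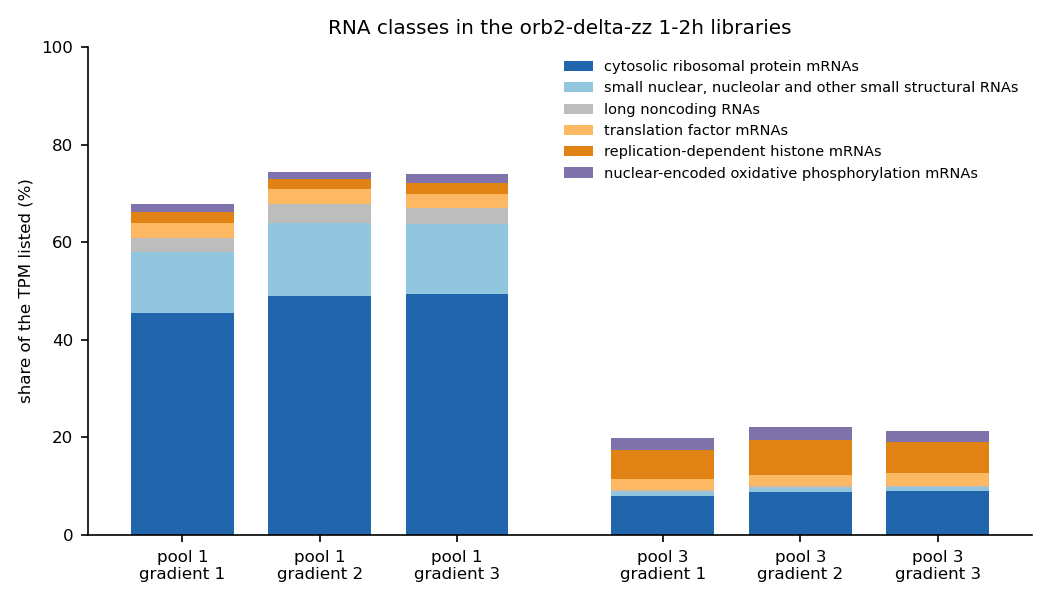
Share of the listed TPM (%, linear axis from 0) taken by 6 RNA classes in each of the 6 orb2-delta-zz 1-2h libraries, with 1 stacked bar per library. Ribosomal protein mRNAs fill 45.5% to 49.4% of pool 1 and 8.09% to 9.04% of pool 3.

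Ribosomal protein mRNAs had the lowest pool ratios of any group of mRNAs described here. Of 82 tested, 81 were lower in pool 3 and 1 was higher, with a median ratio of -4.04, or -4.10 relative to the median gene (-3.73 on the TPM scale). The list's medians in the 3 gradients were -3.75, -4.24 and -4.16, and the wild-type median was -4.07. The protein-coding genes named here for the lowest ratios all encode ribosomal proteins, and they were RpL30, RpL32, RpL37A, RpL28, RpL41, RpS20, RpS29, RpL14, RpL27, RpS12 and RpL29.

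RpL30 (FBgn0086710), of the large ribosomal subunit, stood at the bottom, with 169760, 229960 and 231580 normalized counts in pool 1 and 2887, 2838 and 2486 in pool 3. Every value of pool 1 lay far above every value of pool 3, a 76.2-fold difference (log2 ratio -6.25 ± 0.15, adjusted p = 7.3e-10). RpL41, which encodes one of the shortest proteins of the fly with a coding part of 75 nt, had 171920, 311740 and 250320 normalized counts in pool 1 and 4893, 6192 and 5012 in pool 3 (-5.48 ± 0.14, adjusted p = 7.3e-10). The exception was RpS15Ab (FBgn0033555), a paralog of RpS15Aa, with 390.4, 530.0 and 565 normalized counts in pool 1 and 932, 1196 and 813 in pool 3 (0.98 ± 0.19, adjusted p = 0.00068). Reads shared with its paralog make the value of RpS15Ab uncertain. On the TPM scale the ratio of RpL30 was -4.39, beside 1.55 for the median gene.

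Other mRNAs of the translation apparatus were low in pool 3 relative to the median gene, by less. Of 47 translation factor mRNAs 34 were lower and 8 higher, with a median of -1.27 on the authors' scale and 0.58 on the TPM scale, which is -1.33 and -0.97 relative to the median gene. eEF1alpha1, which brings aminoacyl-tRNA to the ribosome, had 1208100, 1553600 and 1295300 normalized counts in pool 1 and 156540, 163050 and 172390 in pool 3, an 8.21-fold difference (-3.04 ± 0.14, adjusted p = 8.9e-09). Under quantile normalization its ratio was -1.7e-31. That method gives a gene of the same rank in each library the same value, so it cannot test this difference. The cap-binding factor mRNA eIF4E1 (-3.08 ± 0.12) and eEF1beta (-3.20) were as low. The members at the other end were eIF4G2, a paralog of the scaffold eIF4G (4.31 ± 0.29), eIF5, which promotes GTP hydrolysis by eIF2 (2.66), and eIF5B, which joins the subunits (2.54).

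Of 20 aminoacyl-tRNA synthetase mRNAs 13 were lower and 2 higher (median -1.15, and 0.69 on the TPM scale, or -1.21 and -0.85 relative to the median gene). The 2 higher were IleRS (1.72) and GluProRS (1.31), and the lowest were alpha-PheRS (-1.92), AspRS (-1.83) and LysRS (-1.74), of which AspRS and LysRS were positive on the TPM scale (0.024 and 0.12) and alpha-PheRS was not called there (-0.065, adjusted p = 0.68).

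Mitochondrial ribosomal protein mRNAs, translated on cytosolic ribosomes like the others, had a median of -1.46 (61 of 71 lower, 3 higher), which turned to 0.39 on the TPM scale and was -1.52 and -1.16 relative to the median gene. mRpL46 (-3.14), mRpS35 (-3.12) and mRpL42 (-3.10) were lowest. The 3 higher were mRpL28 (1.34 ± 0.12), mRpL13 (0.51) and mRpS30 (0.39), and the last 2 lost their call under quantile and upper-quartile scaling and without 1 of the gradients. For nuclear-encoded oxidative phosphorylation mRNAs the counts were 42 lower and 11 higher of 68 (median -0.72, 1.13 on the TPM scale, or -0.77 and -0.42 relative to the median gene). ND-MNLL, COX7A and UQCR-Q, whose products are small subunits of complexes I, IV and III, had ratios of -3.19, -3.14 and -2.88. ND-42, also of complex I, was higher in pool 3 (2.53 ± 0.13).

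Of 34 proteasome subunit mRNAs 13 were higher and 10 lower, beside 41.5% and 40.0% of all genes, with a median of 0.15 on the authors' scale, 1.97 on the TPM scale (0.094 and 0.42 relative to the median gene), and -0.16 and -0.23 under quantile and upper-quartile scaling. The lowest were Rpn3 (-2.03), Rpn11 (-2.01) and Rpt5 (-1.85, 0.011 on the TPM scale), of the regulatory particle, and none of these 3 was called lower on the TPM scale, with -0.17 for Rpn3 (adjusted p = 0.27) and -0.15 for Rpn11 (adjusted p = 0.35). The highest were Prosbeta5, a catalytic subunit (2.67), Rpn12 (2.52) and Rpt4 (1.78). Chaperone mRNAs lay lower in 20 of 27 cases and higher in 3 (median -0.85, 0.99 on the TPM scale, or -0.91 and -0.56 relative to the median gene). Hsp26, a small heat-shock protein mRNA that is maternal in flies, had 134010, 138540 and 126470 normalized counts in pool 1 and 14069, 10195 and 10909 in pool 3 (-3.52 ± 0.16, adjusted p = 7.8e-09).

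**Figure D2:**
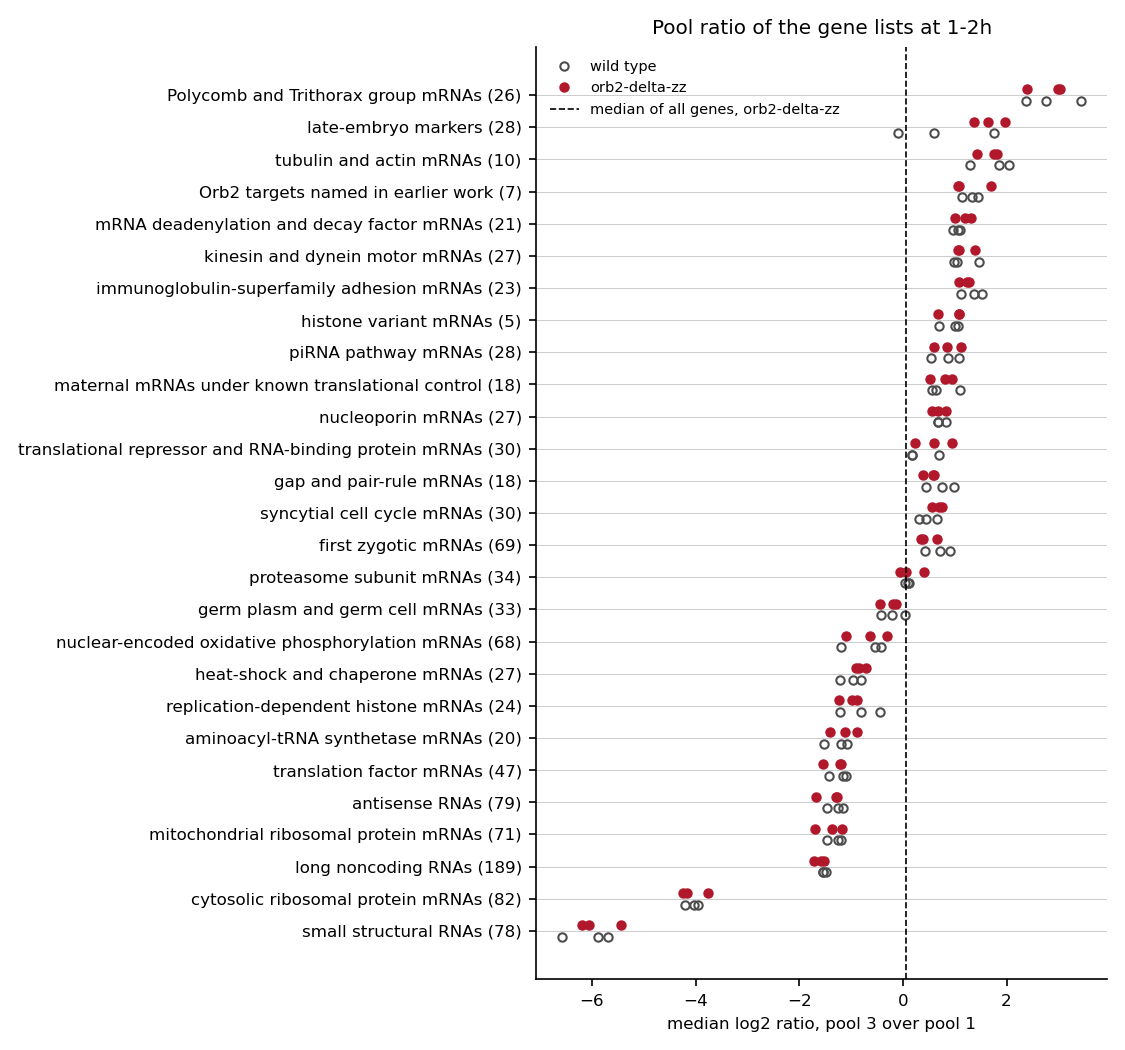
Median log2 ratio of pool 3 over pool 1 for each gene list with at least 5 tested members (number in brackets), with 1 point per gradient, filled for orb2-delta-zz and open for wild type at 1-2h. The dashed line is the median of all tested genes (0.06). Small structural RNAs and ribosomal protein mRNAs lie far to the left in both genotypes, and Polycomb and Trithorax group mRNAs lie farthest to the right.

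RNAs that are not translated were low in pool 3. Of 78 small structural RNAs 77 were lower and none was higher, with a median ratio of -5.89 (-5.95 relative to the median gene, -5.68 on the TPM scale). RNaseMRP:RNA, the RNA of an enzyme that cuts precursor ribosomal RNA, had 83099, 176630 and 143320 normalized counts in pool 1 and 445, 607 and 479 in pool 3, a 253-fold difference (-7.98 ± 0.20, adjusted p = 7.3e-10). The lowest ratio of all 8294 genes was that of snoRNA:SC35-a, with 5563, 5427 and 7225 normalized counts in pool 1 and no more than 19.6 in any library of pool 3 (-8.62 ± 0.26, adjusted p = 9.5e-10). Next among RNAs without a coding part came snoRNA:Psi18S-1389a (-8.61), snoRNA:CG32479-a (-8.52) and snoRNA:Psi18S-841d (-8.14), of a class that guides modification of ribosomal RNA.

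Long noncoding RNAs were lower in 135 of 189 cases and higher in 21 (median -1.64), and antisense RNAs in 52 and 7 of 79 (-1.41). On the TPM scale both medians turned positive (0.12 and 0.19 over all members tested there). Relative to the median gene they were -1.70 and -1.47 on the authors' scale. Over the 127 and 40 members tested on both scales, the TPM medians were 0.012 and 0.020, or -1.53 each relative to the median gene. lncRNA:CR34335 was the lowest, with 112780, 211460 and 160900 normalized counts in pool 1 and 1610, 1146 and 990.2 in pool 3 (-7.00 ± 0.25, adjusted p = 2e-09). Some RNAs annotated as noncoding were higher in pool 3. lncRNA:CR42862 had 1362, 1840 and 1687 normalized counts in pool 1 and 7075, 6407 and 7310 in pool 3 (2.10 ± 0.16, adjusted p = 4e-07), and lncRNA:CR32218 (2.59), lncRNA:CR45102 (1.97) and asRNA:CR45171 (1.91) were higher too. The kit keeps strand, but the sources used here do not say whether the quantification used it, so reads of an antisense RNA and of the gene it overlaps may not be told apart.

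By the rule used to name genes, the 12 highest protein-coding ratios were those of Taf1, Prp5, Spt6, BRWD3, Bicra, egg, sti, upSET, osa, htk, CG7728 and spen, between 6.27 and 5.52. Taf1 (FBgn0010355), the largest subunit of the general transcription factor TFIID, had 85.0, 133 and 195 normalized counts in pool 1 and 10697, 9848 and 9830 in pool 3, a 77.2-fold difference (6.27 ± 0.22, adjusted p = 1.7e-09). Spt6, a histone chaperone of elongating RNA polymerase II, had 306, 343 and 401 in pool 1 and 23051, 20005 and 19984 in pool 3 (5.91 ± 0.17, adjusted p = 7.9e-10). For both genes the pools did not come near each other in any gradient. The histone methyltransferase mRNA egg (5.63) and spen, which encodes a very large nuclear RNA-binding protein (5.52), were of the same order.

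Polycomb and Trithorax group mRNAs, which encode chromatin proteins that hold developmental genes silent or active, had the highest median of the lists with at least 5 tested members. Of 26 tested 18 were higher and 6 lower (median 3.00, or 2.94 relative to the median gene and 2.64 on the TPM scale). The 3 highest were osa, a subunit of the Brahma remodelling complex (5.60 ± 0.19), trr, a histone methyltransferase (5.38), and kis, a remodelling ATPase (5.2 ± 0.18). Values of osa were 882, 1404 and 1497 normalized counts in pool 1 and 66790, 57602 and 54768 in pool 3. Members with shorter coding parts lay at the other end. esc and Pc, of Polycomb repressive complexes 2 and 1, had ratios of -1.53 ± 0.11 and -1.46 ± 0.13, and escl one of -1.17, and all 3 were positive on the TPM scale (0.33, 0.39 and 0.59). The coding parts in the annotation were 8148 nt for osa and 16551 nt for kis, against 1275 nt for esc and 1170 nt for Pc.

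Across all protein-coding genes the ratio rose with the length of the coding part. The median was -0.86 for 741 genes of up to 500 nt, -0.62 for 1718 of 500 to 1000 nt, -0.20 for 2843 of 1000 to 2000 nt, 0.95 for 1837 of 2000 to 4000 nt, 2.74 for 607 of 4000 to 8000 nt and 3.71 for the longest. The order of the 6 classes was the same in each of the 3 gradients and on the TPM scale, where the medians ran from 0.89 to 4.48. Genes called higher made up 20.5% of the shortest class and 93.5% of the longest, and those called lower 59.6% and 0.81%, against 42.9% and 38.3% of all 7869 protein-coding genes. The single gene over 8000 nt called lower was Muc12Ea (-1.83), named here after its value was seen. Spearman's rho between ratio and coding length was 0.50 over 7869 genes, a description, since genes are not independent and longer genes also differ in sequence and level.

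Length described the groups in part. Without the cytosolic ribosomal protein genes, the 692 genes of up to 500 nt had a median of -0.73, and the ribosomal protein mRNAs, with a median coding part of 466.5 nt, had one of -4.04. Nuclear-encoded oxidative phosphorylation mRNAs have the same median coding length (466.5 nt) and had a median ratio of -0.72. Lengths are those of the annotated transcript with the longest coding part and may not be those expressed.

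**Figure D3:**
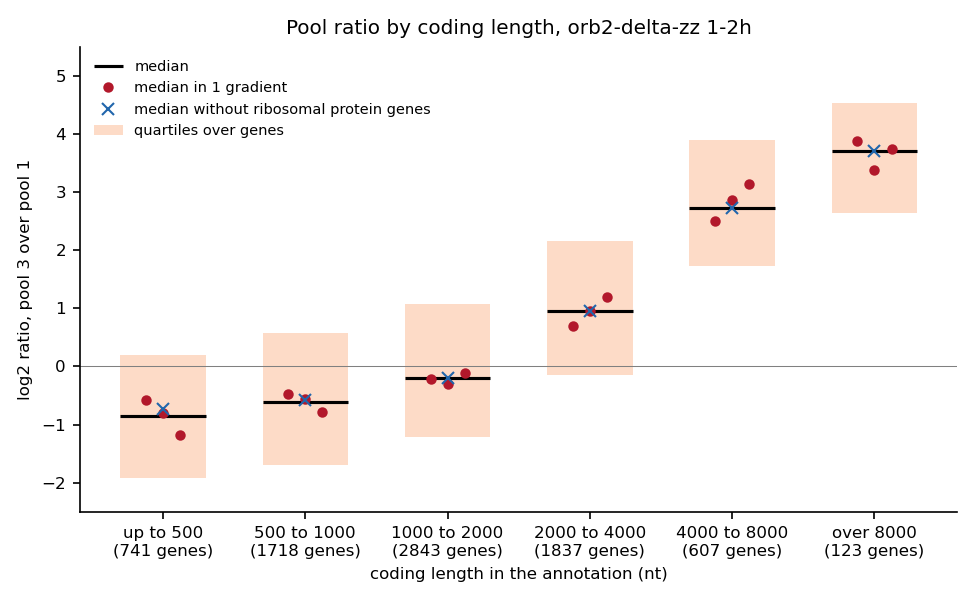
Log2 ratio of pool 3 over pool 1 (vertical axis) by coding length class in nt (horizontal axis, number of genes in brackets) in orb2-delta-zz at 1-2h. Boxes span the quartiles over genes, lines are medians, points are medians in the 3 gradients and crosses are medians without ribosomal protein genes. The median rises from -0.86 in the shortest class to 3.71 in the longest.

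Maternal mRNAs whose translation is known to be controlled had ratios from -3.54 to 5.42. Of 18 tested 10 were higher and 8 lower in pool 3, and the pools did not overlap for any of the 18 (79.3% of all genes). Their median was 0.76 (0.70 relative to the median gene, 1.05 on the TPM scale).

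The highest was zld (FBgn0259789), which encodes the pioneer factor Zelda that opens the zygotic genome. It had 1194, 1338 and 1427 normalized counts in pool 1 and 62858, 53489 and 53776 in pool 3, a 42.9-fold difference (5.42 ± 0.17, adjusted p = 9.7e-10). Tl, the receptor of dorsoventral patterning (4.09 ± 0.14), and smg, the repressor Smaug that starts maternal mRNA decay (4.04 ± 0.18), followed. smg had 5937, 8413 and 6086 normalized counts in pool 1 and 112100, 111820 and 107550 in pool 3. The mitotic cyclins CycA (2.77 ± 0.22) and CycB (2.67 ± 0.22) and the anterior determinant bcd (2.53 ± 0.13) were higher too, with CycB at 16428, 26479 and 20330 in pool 1 and 147640, 126110 and 123540 in pool 3.

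Closer to the median gene lay tor, the terminal receptor (1.99 ± 0.13), twe, the meiotic Cdc25 phosphatase (1.41 ± 0.18), hb, the gap gene under Nanos control (0.79 ± 0.16), and osk, the organiser of germ plasm (0.73 ± 0.14). osk had 22304, 16661 and 15629 normalized counts in pool 1 and 34079, 27891 and 28002 in pool 3, so the pools lay close together without overlap.

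Lower on the authors' scale but positive on the TPM scale were stg, the mitotic Cdc25 (-0.42 ± 0.14 and 1.43), cad, the posterior factor (-0.78 ± 0.12 and 1.07), Hsp83, a maternal chaperone mRNA protected in the germ plasm (-0.85 ± 0.16 and 1.00), and cort, a meiotic activator of the anaphase-promoting complex (-1.26 ± 0.17 and 0.54). The call of stg was lost without gradient 2 of orb2-delta-zz (-0.32, adjusted p = 0.13) and with equal protein-coding sums (-0.020, adjusted p = 0.87). gcl, a germ cell determinant, was lower on the authors' scale (-2.05 ± 0.12) and not called on the TPM scale (-0.19, adjusted p = 0.28). Lower on both scales were png, a kinase of egg activation (-2.38 ± 0.18), grk, the oocyte ligand of the EGF receptor (-2.45 ± 0.12), and pgc, which blocks transcription in germ cells (-3.54 ± 0.16). pgc had 29163, 35859 and 31852 normalized counts in pool 1 and 3168, 2586 and 2598 in pool 3, an 11.6-fold difference (adjusted p = 7.4e-09).

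**Figure D4:**
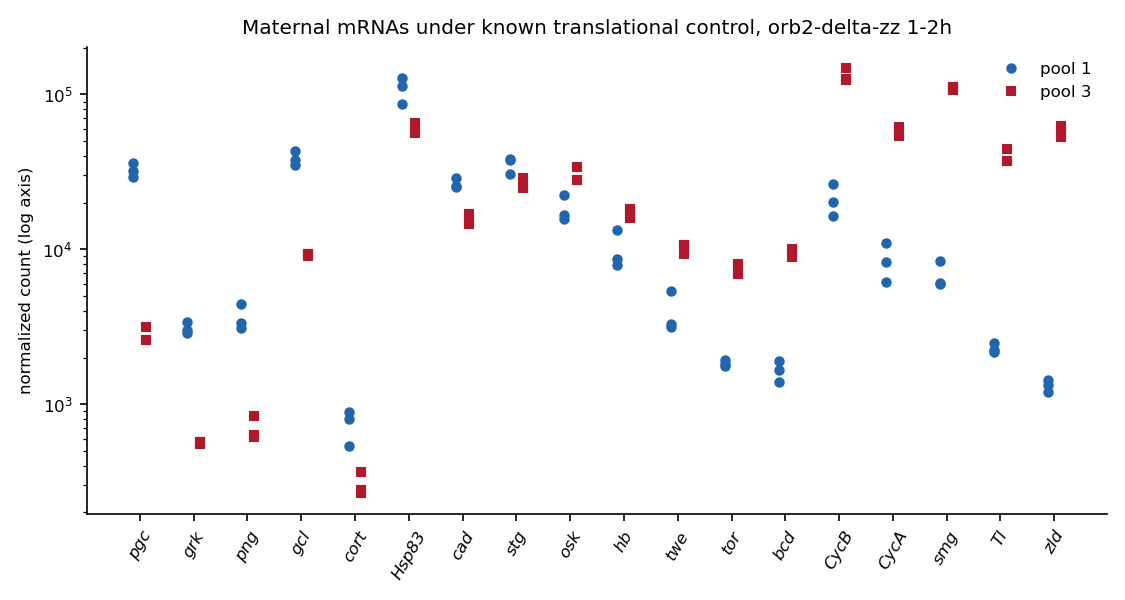
Normalized counts (log axis) of 18 maternal mRNAs under known translational control in orb2-delta-zz at 1-2h, ordered by pool ratio, with circles for the 3 libraries of pool 1 and squares for those of pool 3. The pools do not overlap for any of them, from pgc (log2 ratio -3.54) to zld (5.42).

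The 3 subunits of PNG kinase, which drives translation of maternal mRNAs after egg activation, differed among themselves. gnu, its activating subunit, had 56387, 49850 and 57118 normalized counts in pool 1 and 4082, 3454 and 3616 in pool 3, a 14.7-fold difference (-3.87 ± 0.13, adjusted p = 1.2e-09). png, the catalytic subunit, had 3365, 4452 and 3081 against 839, 613 and 636. plu had 1462, 2059 and 1906 in pool 1 and 1480, 1568 and 1213 in pool 3, so its pools overlapped (-0.34 ± 0.14, adjusted p = 0.045). This call was lost when the fit held only the 6 libraries compared, without the block (adjusted p = 0.099), and without gradient 2 (ratio -0.32, adjusted p = 0.15) or gradient 3 (-0.19, adjusted p = 0.30) of orb2-delta-zz. It was also lost without wild-type replicate 1 (adjusted p = 0.071) or 2 (adjusted p = 0.053). The TPM ratio of plu was 1.5, close to that of the median gene.

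Among 30 mRNAs of the syncytial cell cycle 17 were higher and 11 lower, beside 41.5% and 40.0% of all genes. Their median was 0.59, or 0.53 relative to the median gene and 0.88 on the TPM scale. The activator of the anaphase-promoting complex fzy, with 713, 708 and 831 normalized counts in pool 1 and 11525, 9556 and 9712 in pool 3 (3.77 ± 0.13), the checkpoint kinase mRNA BubR1 (3.25) and Wee1, which inhibits Cdk1 (3.12), were highest. The spindle checkpoint mRNA mad2 (-2.51) stood with gnu and png at the low end.

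mRNAs of translational repressors and RNA-binding proteins were higher in 16 of 30 cases and lower in 7, beside 41.5% and 40.0% of all genes. Their median was 0.63, or 0.57 relative to the median gene and 0.75 on the TPM scale. glo, an RNA-binding protein mRNA of the hnRNP F/H family, had 317, 332 and 358 normalized counts in pool 1 and 8960, 8405 and 8250 in pool 3 (4.67 ± 0.13, adjusted p = 8.1e-10), and smg (4.04) and larp, a protein that binds mRNA ends (3.67), were next. me31B, the DEAD-box helicase of repressed maternal mRNPs, had 195050, 239110 and 193620 in pool 1 and 55160, 54464 and 54576 in pool 3 (-1.93 ± 0.14). Its call was lost on the TPM scale (-0.071, adjusted p = 0.57) and under quantile normalization (-0.21, adjusted p = 0.17). exu, which localises bcd, had a ratio of -2.44 ± 0.16. bru1, a repressor of osk, was lower on the authors' scale and not on the TPM scale (-1.46 and 0.40), and its call was lost under quantile normalization (-0.19, adjusted p = 0.32).

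The list of mRNA decay factors also holds muskelin, a subunit of the CTLH ubiquitin ligase. Members of the list were higher in 12 of 21 cases and lower in 8, beside 41.5% and 40.0% of all genes. Their median was 1.31, or 1.25 relative to the median gene and 1.57 on the TPM scale. Not1, the scaffold of the CCR4-NOT deadenylase, had 1725, 2250 and 2236 normalized counts in pool 1 and 77725, 68489 and 66290 in pool 3, a 34.4-fold difference (5.10 ± 0.16, adjusted p = 1e-09). The decapping activator Patr-1 (4.31) and CG7611 (3.54) were next, and LSm7 (-3.59 ± 0.16), LSm1 (-2.43) and Not11 (-1.93) were lowest. Not11 was not called on the TPM scale (-0.073, adjusted p = 0.66).

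Germ plasm and germ cell mRNAs were higher in 14 of 33 cases and lower in 17, beside 41.5% and 40.0% of all genes. Their median was -0.33 on the authors' scale, 1.47 on the TPM scale and 0.071 with equal protein-coding sums, and relative to the median gene it was -0.39 and, on the TPM scale, -0.077. The Tudor-domain mRNAs SoYb (4.32), tud (3.42) and papi (3.19) were high, and rhi, a heterochromatin protein of piRNA clusters (-3.07), and pgc were low. Of 28 piRNA pathway mRNAs, which partly overlap that list, 16 were higher and 11 lower (median 0.90, or 0.84 relative to the median gene and 0.83 on the TPM scale). egg was highest (5.63), and cuff (-1.91) and squ (-1.78) were low beside rhi. On the TPM scale cuff was not called (-0.064, adjusted p = 0.74) and squ stood at 0.080.

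Cytoskeletal mRNAs were mostly higher in pool 3. Of 27 kinesin and dynein motor mRNAs 21 were higher and 3 lower (median 1.05, or 1.00 relative to the median gene and 1.02 on the TPM scale). The long kinesin mRNAs cana (5.25), cmet (5.04) and cos (4.71) led, and nod (-1.67), Klp68D (-1.08) and robl (-0.38) were lower, though each was positive on the TPM scale (0.18, 0.75 and 1.44). The call of robl was lost without the gradient block (adjusted p = 0.093), without gradient 2 (-0.43, adjusted p = 0.076) or gradient 3 (-0.23, adjusted p = 0.25) of orb2-delta-zz and without wild-type replicate 1 (adjusted p = 0.058). Its ratio was 0.015 with equal protein-coding sums. Of 10 tubulin and actin mRNAs 7 were higher and 2 lower (median 1.69, or 1.63 relative to the median gene and 1.78 on the TPM scale).

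gammaTub37C, the maternal gamma-tubulin, had 9212, 9702 and 7336 normalized counts in pool 1 and 1959, 1428 and 1439 in pool 3 (-2.45 ± 0.15). gammaTub23C, the form of other cells, had 221, 253 and 259 in pool 1 and 3679, 3052 and 3235 in pool 3 (3.76 ± 0.16). Their annotated coding parts are of nearly equal length, 1371 and 1425 nt. The maternal alpha-tubulin alphaTub67C was lower on the authors' scale only (-1.52 ± 0.15, and 0.33 on the TPM scale), and betaTub56D was higher (2.18 ± 0.14).

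Nucleoporin mRNAs were higher in 16 of 27 cases and lower in 7, beside 41.5% and 40.0% of all genes. Their median was 0.69, or 0.64 relative to the median gene and 0.91 on the TPM scale. The long Nup153 (5.14), Nup358 (5.11) and Elys (4.89) led, and Nup43 (-2.75) was lowest. Of 5 histone variant mRNAs (median 1.00, or 0.94 relative to the median gene and 1.28 on the TPM scale), His2Av (1.61 ± 0.29), His3.3B (1.19) and His3.3A (1.00) were higher, and cid, the centromeric histone H3, was lower (-2.56 ± 0.13). Replication-dependent histone mRNAs were higher in 8 of 24 cases and lower in 13 (median -1.08, 0.45 on the TPM scale, or -1.14 and -1.10 relative to the median gene), but these genes are near-identical copies among which the quantification may split reads, so single values are uncertain. By histone, all 3 lowest were H1 copies (His1:CG33861 -3.31, His1:CG33852 -2.47 and His1:CG33822 -2.28, the last not called on the TPM scale, adjusted p = 0.081), and the highest were His2B:CG33902 (4.57), His4r (1.89) and His3:CG33818 (0.85).

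Genes listed as first zygotic, known for early transcription by the embryo itself, were higher in pool 3 in 38 of 69 cases and lower in 15. Their median was 0.45 (0.39 relative to the median gene, 0.22 on the TPM scale). Of these genes 68 were also tested at 0-1h, and maternal RNA was not told apart from RNA made by the embryo. stumps, an FGF-receptor adaptor of the mesoderm, had 66.9, 39.7 and 60.5 normalized counts in pool 1 and 459.9, 417 and 472 in pool 3 (3.02 ± 0.18, adjusted p = 7.4e-08), and ImpE2 (2.46) and sog, an inhibitor of Dpp signalling (2.08), came next. The amino acid transporter mRNA path, with 26621, 17327 and 16844 normalized counts in pool 1, was the lowest (-2.27 ± 0.12), before E(spl)m5-HLH (-1.57) and Mes2 (-1.47), both positive on the TPM scale (0.25 and 0.39). Gap and pair-rule mRNAs were higher in 11 of 18 cases and lower in 2 (median 0.60, or 0.54 relative to the median gene and 0.57 on the TPM scale). The lower ones were ftz (-0.90) and cad (-0.78), both positive on the TPM scale (0.92 and 1.07).

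Of 23 immunoglobulin-superfamily adhesion mRNAs 15 were higher and 1 lower (median 1.01, or 0.96 relative to the median gene and 0.69 on the TPM scale), with fra (3.83), robo2 (3.44) and Dscam1 (3.34), all receptors of axon guidance, at the top. The muscle, neuron and cuticle genes listed as late-embryo markers were higher in 18 of 28 cases and lower in 2 (median 1.69, or 1.63 above the median gene). On the TPM scale their median was 1.93, or 0.38 above the median gene. Their summed level stood apart in gradient 3, at 10540 normalized counts in pool 1 against 6303 and 5582 in the other gradients, and at 34888 in pool 3 against 25965 and 25487. In wild type replicate 2 stood apart, at 11571 in pool 1 against 5133 and 6439, and at 50882 in pool 3 against 23059 and 26025. That replicate is part of the fit and of the genotype difference. Without gradient 3 of orb2-delta-zz there were 16 higher and 0 lower (median 1.58). Mhc, the muscle myosin heavy chain, had 31.4, 46.0 and 114 normalized counts in pool 1 and 431, 706 and 1985 in pool 3, so it was high in gradient 3 in both pools (3.92 ± 0.97, adjusted p = 0.0034). The SE of Mhc comes from the fit over both genotypes and does not describe the scatter of its orb2-delta-zz ratios alone. The call of Mhc was lost without the gradient block (adjusted p = 0.071). Without the gradient block 5 of the 28 late-embryo markers were called higher. Of the markers of egg shell and follicle cells and of adult fat body, gut and sperm, 1 each was tested, br (1.72) and fat-spondin (1.92). The listed markers of each of these lists summed to at most 155 normalized counts in the 6 libraries. The ratios of fat-spondin were 2.26, 0.73 and 2.76 in gradients 1, 2 and 3, and its call was lost without gradient 1 or 3. The part of late-embryo cells in the results was not tested.

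The mRNA of the edited gene, orb2 (FBgn0264307), had 1854, 1569 and 942 normalized counts in pool 1 and 1696, 1663 and 1696 in pool 3. The pools overlapped, and the ratio did not pass the test (0.27 ± 0.19, adjusted p = 0.213). RNA from the locus was thus present in both pools, and these gene values do not show the deleted part. Among 7 genes that earlier work named as Orb2 targets, a list that includes orb2 itself, 4 were higher and 0 lower, against 41.5% and 40.0% of all genes. The list's median was 1.35, or 1.29 relative to the median gene and 0.49 on the TPM scale. The higher ones were the adhesion gene tutl (2.67 ± 0.19), neur, a ubiquitin ligase of Notch signalling (2.32 ± 0.13), mura (1.53 ± 0.19) and eya (1.35 ± 0.24), and eya had no value over 55.2 normalized counts. orb, the other CPEB gene (0.21 ± 0.19, adjusted p = 0.342), and aPKC, a polarity kinase (0.05 ± 0.12, adjusted p = 0.711), did not pass the test.

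The next comparison asked where the pool ratio of orb2-delta-zz differed from that of wild type at 1-2h. In wild type 3366 genes were called higher and 3257 lower (79.9% in all, 40.6% and 39.3%), and 6228 genes were called on the same side in both genotypes. Across all 8294 genes the ratios had Pearson's r = 0.977 and Spearman's rho = 0.973, over genes that share the normalization and are not independent. For 84.4% of genes they lay within 0.5 log2 of each other. The genotype difference itself was called for 57 genes (0.687%), 19 with a higher and 38 with a lower ratio in orb2-delta-zz, and 766 had an unadjusted p under 0.05. Without gradient 2 of orb2-delta-zz 9 and 14 genes were called, without its gradient 1 there were 10 and 27, without its gradient 3 there were 13 and 22, and without wild-type replicate 1 there were 10 and 18. All 57 were protein-coding, and 14 of them were called on opposite sides of 0 in the 2 genotypes. The median gene's difference was -0.03, and the median SE was 0.22.

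One of the 14 was muskelin, a subunit of the CTLH ubiquitin ligase that removes repressors of maternal mRNA. It had 24948, 21699 and 18409 normalized counts in pool 1 and 12810, 12066 and 12111 in pool 3 of orb2-delta-zz. In wild type the values were 8731, 6830 and 9313 for pool 1 and 17117, 14650 and 19382 in pool 3 (ratios -0.80 and 1.04, difference -1.85 ± 0.17, adjusted p = 0.0011). The order of the pools was thus opposite in the 2 genotypes. It was singled out from the decay factor list after its value was seen.

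CG6180 had the lowest difference of the genes named, with 1832, 2906 and 1842 normalized counts in pool 1 and 598, 497 and 429 in pool 3 of orb2-delta-zz and 1089, 1118 and 1068 against 3841, 2845 and 3391 in wild type (-3.70 ± 0.25, adjusted p = 0.00023). Its pools thus stood in opposite order in the 2 genotypes. Hen1, the methyltransferase of small RNA ends, had ratios of 0.85 and 3.14 (difference -2.28 ± 0.20), with 487, 458 and 447 normalized counts in pool 3 of orb2-delta-zz and 954, 781 and 875 in wild type. Tgt, a tRNA-guanine transglycosylase, had ratios of 1.32 and -1.24 (2.56 ± 0.18, adjusted p = 0.00024). In orb2-delta-zz it rose from 263, 314 and 268 in pool 1 to 707, 788 and 624 in pool 3, and in wild type it fell from 449, 334 and 459.8 to 203, 137 and 185.

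CG12560 (difference 2.66) had wild-type levels of 10.1, 38.9 and 23.4 normalized counts for pool 1 and 5.40, 8.81 and 12.7 for pool 3. Its call was lost without orb2-delta-zz gradient 2 (adjusted p = 0.12), without the gradient block (adjusted p = 0.074) and under quantile normalization (adjusted p = 0.058). Fas3 (2.44 ± 0.46, adjusted p = 0.047) had 857 and 1699 normalized counts in wild-type replicate 2 and 214 to 466 in the other wild-type libraries, and its call was lost when any gradient of orb2-delta-zz or wild-type replicate 1 was left out. It was also lost without the gradient block (adjusted p = 0.68), on the TPM scale (0.91, adjusted p = 0.76), with a pseudocount of 10, without the filter on low values and under quantile, upper-quartile and equal-sum scaling (adjusted p from 0.051 to 0.084). By the Ensembl annotation, 38 of the 57 genes lie on chromosome 2, 12 on X, 6 on chromosome 3 and 1 on chromosome 4, and these chromosomes hold 37.5%, 17.4%, 43.3% and 0.989% of the tested genes, with orb2 itself on chromosome 3. Linked differences between the stocks were not tested. The first zygotic list took 0.272%, 0.384% and 0.358% of the TPM of pool 3 in orb2-delta-zz at 1-2h. In wild type it took 0.556%, 0.788% and 0.581%. Whether the collections of the 2 genotypes differed in embryo stage was not tested.

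**Figure D5:**
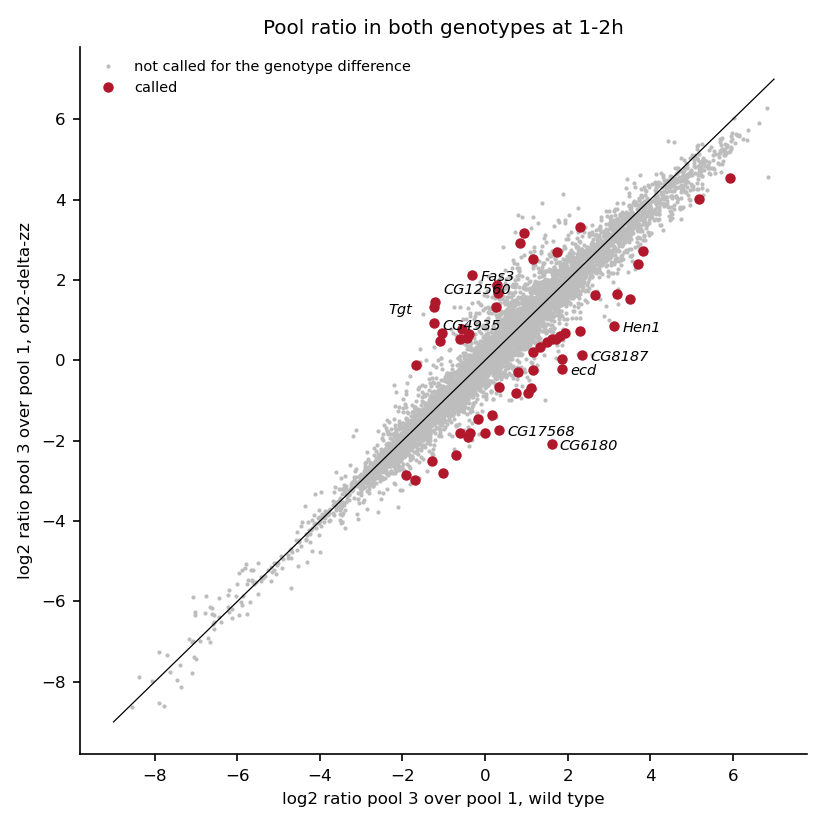
Log2 ratio of pool 3 over pool 1 in orb2-delta-zz (vertical axis) against wild type (horizontal axis) for each of 8294 genes at 1-2h, with the line of equal ratios. Filled circles are the 57 genes called for the genotype difference, and those named by rule carry their symbol. Nearly all genes lie along the line, and CG6180 lies farthest below it.

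The last comparison set the pool ratio of orb2-delta-zz at 1-2h beside those at 0-1h and 2-3h. The normalized counts were deposited in a separate table for each time, so lists are given side by side and tests used TPM. Within each time 81.2% of 7533 genes were called at 0-1h (41.6% higher, 39.5% lower) and 71.9% of 9554 at 2-3h (36.5% higher, 35.4% lower). Ribosomal protein mRNAs had medians of -3.17, -4.04 and -4.73 at 0-1h, 1-2h and 2-3h, small structural RNAs of -5.41, -5.89 and -6.65, and translation factors of -0.84, -1.27 and -1.62, over 46 to 49 tested members for the last. Mitochondrial ribosomal protein mRNAs had medians of -1.46, -1.46 and -0.60. First zygotic mRNAs had 1.40, 0.45 and 0.09, and replication-dependent histones -1.75, -1.08 and 0.41. For the first zygotic list the direction of change depended on the scale, as given below. Over coding length, the class over 8000 nt had medians of 5.28, 3.71 and 2.71, and the shortest class -0.89, -0.86 and -0.66.

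On the log2(TPM + 1) scale 2849 of 7237 genes (39.4%) changed their pool ratio from 0-1h to 1-2h, 2104 (29.1%) up and 745 (10.3%) down, and 3569 (49.3%) from 1-2h to 2-3h, 3051 (42.2%) up and 518 (7.16%) down. For the first step, 462 genes were called down without gradient 1 of 1-2h and 440 without gradient 2 of 1-2h. The split depends on the scale. The median gene's TPM ratio was 1.25, 1.56 and 2.30 at the 3 times, and with median-of-ratios scaling, chosen after the data were seen, the counts were 1867 up (25.8%) and 2318 down (32.0%) for the first step and 1369 up (18.9%) and 2991 down (41.3%) for the second, or 57.8% and 60.2% in all. Both steps share the libraries of 1-2h, so their changes are not independent. Of 68 first zygotic mRNAs tested on TPM, 15 changed up and 3 down in the first step, and 30 up and 0 down in the second. With median-of-ratios scaling the counts for this list were 5 up and 27 down, then 7 up and 30 down. The genes named below kept their direction and their call under both scalings.

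From 0-1h to 1-2h, the largest rises in the ratio came with lower levels in pool 1. Vps11, a tethering factor of lysosomes, went from 70.9, 63.5 and 58.4 TPM to 9.15, 5.81 and 6.51 in pool 1. In pool 3 it went from between 92.1 and 116 TPM to 159, 137 and 151. Its ratio changed by 3.49 ± 0.23 (adjusted p = 1e-06). conu (3.23), CG11920 (3.15) and put, a receptor of Activin and BMP signals (3.11), showed the same form, with pool 1 lower and pool 3 higher at 1-2h than at 0-1h. His2B:CG33902 changed most (6.44 ± 0.48), from 472, 579 and 639 TPM to 30.9, 13.1 and 7.15 in pool 1, within the limit on histone copies given above.

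In the other direction, the cytoplasmic dynein heavy chain Dhc64C (-1.96 ± 0.22) fell in pool 3 from 152, 142 and 133 TPM to 52.0, 37.5 and 35.8, and the Integrator subunit IntS1 (-2.01) from 91.7, 78.9 and 75.4 to 24.4, 16.5 and 16.2. HipHop, a protein of telomere caps (-2.06 ± 0.23), went from 168, 138 and 131 TPM in pool 3 to 57.5, 45.7 and 48.7. toc (-2.21), a microtubule-associated protein, and CG15435 (-2.68) were the others named.

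From 1-2h to 2-3h the lowest changes came with lower levels in pool 3. The yolk protein receptor mRNA yl went from 641, 594 and 599 TPM to 68.8, 97.5 and 135 in pool 3, and from 23.1, 12.4 and 7.80 to 11.8, 9.87 and 18.8 in pool 1 (change -2.63 ± 0.37, adjusted p = 6.3e-05). The egg-shell genes fs(1)N (-2.46), fs(1)M3 (-2.31) and clos (-2.23), needed for terminal patterning, and spg (-2.18) fell likewise. Upward, Slbp, which binds the stem-loop of histone mRNA, went from 432, 331 and 321 TPM to 65.6, 66.9 and 75.6 in pool 1 and from 196, 169 and 178 to 477, 378 and 270 in pool 3 (3.37 ± 0.25, adjusted p = 6.9e-07). U2A, of the U2 splicing particle (3.33), P32 (3.29), CG15387 (3.44) and CG32243 (3.26) were the other named genes, each with a higher TPM in pool 1 than in pool 3 at 1-2h and a lower one at 2-3h.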

How the data were processed

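The submitters' processing notes name Trim Galore 0.6.5, DESeq2 1.42.1 and Salmon 1.9.1. The build of the genome was not stated there. The deposited normalized counts are a signal per gene and library that the authors scaled with DESeq2, deposited in 1 table per time. The deposited TPM were made by the authors as a length-corrected share of each library. For a given gene, both units differed only by a gene constant and a library factor (the log2 remainder had an SD of 0.00595), and whole read counts could not be recovered, since 61.4% to 81.3% of low values lay near whole steps. Depth was estimated from those steps, so it is approximate and no counting interval is given.

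Symbols, coding lengths and chromosomes came from Ensembl release 115, where 8660 of 8723 gene IDs had a symbol and the other 63 were not named. limma 3.58.1 (R 4.3.3) with trend and two-sided tests was fitted to log2(normalized count + 1) of the 12 libraries of 1-2h, with the gradient as a block and pool effects per genotype, on genes with a mean of at least 10, with Benjamini-Hochberg adjustment over 8294 genes. Changes over time used log2(TPM + 1) of the 18 orb2-delta-zz libraries, on the 7237 genes present at each time whose mean TPM reached 1. Pools of 1 replicate number come from 1 gradient, and their deviations from group means correlated at 0.271, 0.436 and 0.459 in orb2-delta-zz. Pools of different orb2-delta-zz gradients correlated at -0.438 to 0.14. In wild type the same-gradient values were 0.615, 0.805 and 0.467. There pool 1 of replicate 1 also correlated at 0.615 with pool 3 of replicate 3, so the correlation does not single out that pair. No pair of libraries was identical. In simulated data of 8294 genes, 8094 had no pool effect and 50 were changed by each fold. There this fit for pool 3 against pool 1 called 36% of genes changed 1.5-fold, 80% at 2-fold, 90% at 4-fold and 96% at 8-fold. In the real comparison 81.5% of genes were called, so these rates do not give the power on these data.

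Genes named are the 12 highest and lowest coding ratios and 6 of other RNAs, up to 3 at each end of a list, and 5 at each end of the other comparisons, restricted to called genes whose mean reached 100 normalized counts (10 TPM for time), and all measured members of 3 short lists. Members and lists were chosen with earlier results of these data known. Python 3.11.15 with pandas 2.3.3, numpy 2.4.6 and matplotlib 3.10.9 made the tables and plots. Alternatives covered the block, pseudocount, filter, TPM, other scalings (median-of-ratios, for time, added after seeing the data) and leaving out each gradient. Sequences and GC content were not analysed here. Some genes that the rule names are not reported here.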

Additional observations from a re-analysis of the deposited data

Results flagged for a closer look

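The genotype difference in the pool ratio was called for 57 genes by a test of the difference itself. The differences of the genes named (log2 ratio of orb2-delta-zz minus that of wild type) were -3.70 for CG6180, -2.28 for Hen1, -2.21 for CG8187, -2.08 for ecd and -2.06 for CG17568, and 2.66 for CG12560, 2.56 for Tgt, 2.44 for Fas3 and 2.15 for CG4935. CG8187 and ecd did not pass the test for pool 3 against pool 1 in orb2-delta-zz (ratios of 0.14 and -0.21) and had ratios of 2.35 and 1.87 in wild type.

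The pool ratio of orb2-delta-zz differed between times, by a test of the change on the TPM scale, for 2849 genes between 0-1h and 1-2h and for 3569 between 1-2h and 2-3h. Changes from 0-1h to 1-2h were -2.68 for CG15435, -2.21 for toc, -2.06 for HipHop, -2.01 for IntS1 and -1.96 for Dhc64C, and 6.44 for His2B:CG33902, 3.49 for Vps11, 3.23 for conu, 3.15 for CG11920 and 3.11 for put. Changes from 1-2h to 2-3h were -2.63 for yl, -2.46 for fs(1)N, -2.31 for fs(1)M3, -2.23 for clos and -2.18 for spg, and 3.44 for CG15387, 3.37 for Slbp, 3.33 for U2A, 3.29 for P32 and 3.26 for CG32243.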

How the results depend on the processing

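Counts of genes higher and lower in pool 3 were 3442 and 3315, and 5855 and 667 on the TPM scale. Leaving out 1 gradient gave 3185 to 3502 higher and 3069 to 3320 lower, and the fit without the gradient block, which ignores the pairing of pools, gave 3060 and 3120. For the genotype difference, 19 higher became 11 without the block, 29 on the TPM scale, 30 with upper-quartile scaling and 39 with equal protein-coding sums, and with 1 gradient left out 9 to 25 were higher and 14 to 36 lower. For 1-2h minus 0-1h, 745 lower became 2204 with quantile normalization, 2785 with upper-quartile and 2318 with median-of-ratios scaling. Leaving out 1 gradient of 1-2h gave 1608 to 2097 higher and 440 to 740 lower. For 2-3h minus 1-2h, 3051 higher became 1129 with upper-quartile and 1369 with median-of-ratios scaling. The 518 lower became 2214 (quantile), 3382 (upper-quartile) and 2991 (median-of-ratios). With 1 gradient of 1-2h left out there were 2465 to 3062 higher and 358 to 470 lower.

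On the TPM scale these list medians turned positive: long noncoding RNAs 0.12, antisense RNAs 0.19, mitochondrial ribosomal proteins 0.39, translation factors 0.58, aminoacyl-tRNA synthetases 0.69, oxidative phosphorylation 1.13, histones 0.45, germ plasm 1.47 and chaperones 0.99. The proteasome median was -0.16 with quantile and -0.23 with upper-quartile scaling, and germ plasm 0.071 with equal protein-coding sums. Genes that turned positive on the TPM scale were AspRS 0.024, LysRS 0.12, Rpt5 0.011, Hsp83 1.00, cad 1.07, cort 0.54, stg 1.43, bru1 0.40, E(spl)m5-HLH 0.25, Mes2 0.39, ftz 0.92, alphaTub67C 0.33, nod 0.18, Klp68D 0.75, robl 1.44, Nup37 0.30, Nup75 0.59, esc 0.33, Pc 0.39, escl 0.59, squ 0.080 and plu 1.5. With quantile normalization Hsp83 was 0.78, stg 0.13, aPKC -0.29 and orb2 -0.014. With upper-quartile scaling aPKC was -0.33, orb -0.17 and orb2 -0.11, and with equal protein-coding sums robl was 0.015 and plu 0.056. With orb2-delta-zz gradients left out, aPKC ranged from -0.019 to 0.099, orb from -0.042 to 0.43 and orb2 from -0.022 to 0.47, and each was below 0 without replicate 3. Except for the scale, the cause was not tested. Over all genes named and alternatives run, 2639 values kept direction and call, 46 lost and 6 gained a call, and 34 changed sign. Depth is known only approximately, and 3 gradients limit the precision. A check by GC content was not run.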
